A study of Homo sapiens with 18 samples.

Results

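The 10 chemokine transcripts CXCL8, CXCL1, CXCL2, CXCL3, CXCL10, CXCL12, CCL2, CCL5, CCL15 and CX3CL1 of uveal melanoma cells are described here across 2 cell lines and 2 inhibitors of the histone methyltransferase EHMT2. They were chosen by symbol and are 10 of the 26475 gene symbols in the deposited count table. RNA-seq was performed on 18 libraries, 3 biological replicates for each of 6 groups. Mel92.1 and MP41, established human uveal melanoma cell lines, were each kept with DMSO as the vehicle or given 1 μM UNC0642 or 1 μM A366, and the inhibitors were left on for 48 h. Both compounds inhibit EHMT2 and can also act on its partner enzyme EHMT1, and each line stands for 1 tumour, so that a difference between the lines has no replicate among tumours. The study ran this RNA-seq to look for genes that act downstream of EHMT2. Whether blocking EHMT2 changes the chemokines that tumour cells release to draw in natural killer (NK) cells was asked there with other assays. These were an antibody array of conditioned medium and RT-qPCR, both after a longer treatment.

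Chemokines are small secreted proteins that guide leukocytes along a gradient towards the cell that makes them. CXCL8, CXCL1, CXCL2 and CXCL3 act on the receptors CXCR1 and CXCR2, mainly on neutrophils, and their genes are classical targets of NF-κB and AP-1. CXCL10 is induced by interferon and calls T and NK cells through CXCR3, CCL2 calls monocytes through CCR2, CCL5 calls T cells and monocytes, CCL15 acts on CCR1, CXCL12 acts on CXCR4, and CX3CL1 is a membrane-bound chemokine for cells with CX3CR1, NK cells among them.

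Promoter sequences are shown for the 5 genes that carry a match to the NF-κB (kB) motif below. All 5 were lower in Mel92.1 than in MP41, but so were CCL15, which held no match, and CCL2, for which no promoter entry was found. A part of the motif in the line difference was not tested. Promoter entries of RefSeq (GRCh38.p14) were found for CXCL8, CXCL1, CXCL2, CXCL3, CXCL10, CXCL12 and CCL15. Motifs were searched on both strands in the 250 bases before the RefSeq start: kB as GGAATTTCC, AP-1 as TGACTCA and an interferon-response core as GAAANNGAA, none of whose matches overlapped another in these promoters. Capitals mark the matches, and each window is written 5′ to 3′ on the strand of its gene.
CXCL8: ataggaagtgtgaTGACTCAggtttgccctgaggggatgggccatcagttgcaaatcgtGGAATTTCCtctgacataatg
CXCL1: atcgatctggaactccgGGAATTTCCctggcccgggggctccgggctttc
CXCL2: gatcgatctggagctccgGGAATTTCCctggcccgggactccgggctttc
CXCL3: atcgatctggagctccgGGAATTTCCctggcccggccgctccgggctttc
CXCL10: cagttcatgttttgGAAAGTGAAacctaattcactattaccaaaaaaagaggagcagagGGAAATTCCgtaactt
The windows lie at chr4:73740419-73740498 (plus strand) for CXCL8, chr4:73869298-73869347 (plus strand) for CXCL1, chr4:74099241-74099290 (minus strand) for CXCL2, chr4:74038735-74038784 (minus strand) for CXCL3 and chr4:76023658-76023732 (minus strand) for CXCL10. The kB match starts 91 bases upstream of the start in CXCL8, 78 in CXCL1, 77 in CXCL2 and 78 in CXCL3, and 176 in CXCL10, where it reads on the other strand. CXCL8 also holds an AP-1 match 137 bases upstream, and an interferon-response core stands 221 bases upstream in CXCL10, 217 in CXCL2 and 233 in CXCL3, the last 2 outside the windows printed. CXCL12 and CCL15 held none of the 3 letter strings in this window. Over all 35116 promoters of the table, 0.413% held the kB letters, 4.2% the AP-1 letters and 6.88% the interferon-response core. The 23 bases ctccgGGAATTTCCctggcccgg stand in CXCL1, CXCL2 and CXCL3 and in 3 promoters of the table in all. GENCODE release 29 places a start of CXCL8, CXCL2, CXCL3, CXCL12 and CCL15 further upstream than RefSeq does.

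The genes fall into clusters on the GRCh38 genome. CXCL8 (chr4:73740506-73743716) and CXCL1 (chr4:73869393-73871242) lie on the plus strand, and CXCL3 (chr4:74036589-74038807), CXCL2 (chr4:74097035-74099293) and CXCL10 (chr4:76021117-76023497) on the minus strand of chromosome 4. CCL2 (chr17:34255218-34257203), CCL5 (chr17:35871491-35880793) and CCL15 (chr17:35996440-36002038) lie on chromosome 17, CX3CL1 (chr16:57372458-57385048) on chromosome 16 and CXCL12 (chr10:44370165-44386493) on chromosome 10. CXCL1, CXCL2 and CXCL3 are close paralogs, and 5.13% of the 50-base words of the longest CXCL2 transcript also occur in CXCL1 and 4.11% in CXCL3. Their counts were not whole numbers in 4, 8 and 7 of 18 libraries, respectively, so reads were shared out among genes there. CCL15 shares 45.8% of its words with the read-through transcript CCL15-CCL14, to which 11 counts were assigned in all libraries together, and CXCL10 overlaps ART3 on the opposite strand.

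The libraries held between 23601156 and 62941462 counts, with a median of 41955693. There are 4 libraries that go against their labels, those labelled A366 replicates 2 and 3 of either line. Over 20 genes at 20 CPM (counts scaled by library size and TMM factor) or more in each Mel92.1 DMSO library and at most 0.05 CPM in each MP41 DMSO library, and 21 genes the other way round, these 4 libraries had 0.0124% to 0.0348% of the level of their labelled line and 95.2% to 121% of that of the other line. In the remaining 14 libraries the level of the other line was at most 0.432%. The study's own gene lists carry per-replicate values that follow 14 libraries under their label and these 4 under the other line. The 4, called the exchanged libraries below, are therefore placed here in the line whose genes they hold, and the A366 results of the members are also given without them and as labelled. Mel92.1 UNC0642 replicate 1 also stands apart, with the lowest total, 32.8% of its counts on 4 ribosomal RNA genes (3.31% to 19.5% elsewhere) and 13343 genes with a count (16290 to 18210 elsewhere). Of 8 melanocytic markers, such as PMEL and TYRP1, 7 were at 1 CPM or more in each Mel92.1 group and 8 of 8 in each MP41 group, with S100B below that in Mel92.1. None of 10 leukocyte markers reached a group mean of 1 CPM. They ranged from CD3E, an antigen-receptor subunit of T cells, at 0.0431 CPM or less in every library, to PTPRC and ITGAM. These 2 reached 0.999 and 1.07 CPM in MP41 libraries and at most 0.131 and 0.0266 CPM in Mel92.1. Of 6 endothelial markers, 1 was at 1 CPM or more in each MP41 group and 0 in each Mel92.1 group, the highest value being VWF at 2.88 CPM in MP41.

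The first question was which of these chemokines the tumour cells make at all. In MP41, 4 members were expressed at a mean of 1 CPM or more (CXCL8, CXCL2, CXCL3 and CCL2), 4 were low (CXCL1, CXCL10, CCL15 and CX3CL1), and CXCL12 and CCL5 lay near 0, meaning a median of 3 counts or fewer over the 9 libraries of the line. In Mel92.1, 2 were expressed (CXCL12 and CX3CL1), 3 were low (CXCL3, CCL2 and CCL15) and 5 lay near 0 (CXCL8, CXCL1, CXCL2, CXCL10 and CCL5). CXCL2 and CXCL10 had 0 counts in 9 of 9 Mel92.1 libraries, which allows up to about 3 counts over the 9 libraries together, counting error only. The members near 0 fell under the filter on low counts in the fit of their line, so a change with an inhibitor was not tested there.

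Per kilobase of the longest transcript, the level with DMSO in MP41 was highest for CXCL8, at 33 ± 1.04 CPM per kb (SD, n = 3). CXCL2 followed at 8.47 ± 0.994, CCL2 at 4.87 ± 0.464 and CXCL3 at 3.6 ± 0.0864 CPM per kb. CXCL10 (0.351 ± 0.133), CCL15 (0.241 ± 0.134), CXCL1 (0.127 ± 0.0434) and CX3CL1 (0.127 ± 0.0265 CPM per kb) were lower, and neighbours among these 4 lay within their spread. In Mel92.1 the order per kilobase was led by CX3CL1 at 1.87 ± 0.229 and CXCL12 at 0.679 ± 0.0411 CPM per kb, followed by CCL2 at 0.379 ± 0.169 and CXCL3 at 0.0774 ± 0.0458 CPM per kb. The neutrophil chemokines CXCL8 and CXCL2 thus led in MP41 and the membrane-bound CX3CL1 in Mel92.1. In bulk RNA, fewer cells making a transcript and less of it per cell cannot be told apart.

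**Figure D1:**
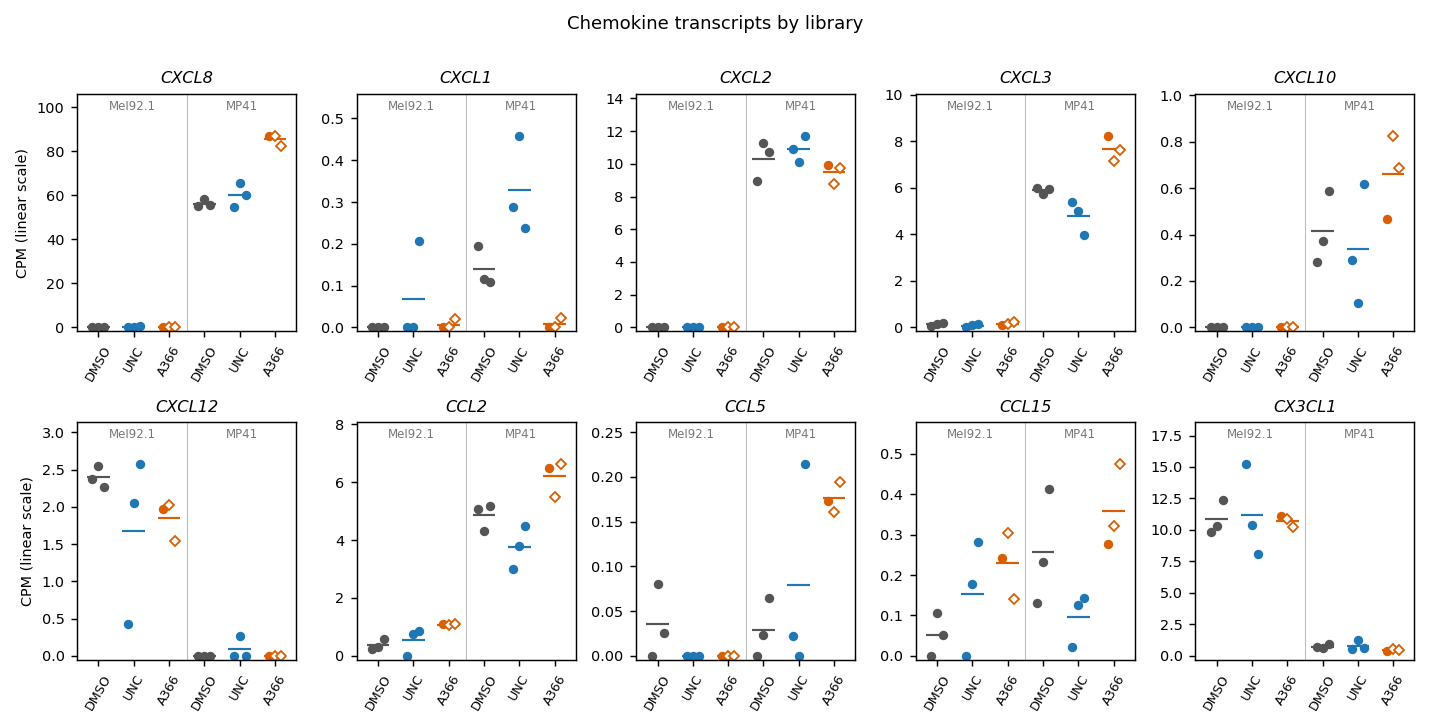
CPM (counts scaled by library size and TMM factor, linear axis from 0) of each chemokine in each library, by line and treatment. Points are libraries, lines are group means, and open diamonds are the 4 libraries placed in the other line than their label. CXCL8, CXCL2, CXCL3 and CCL2 are high in MP41 and low in Mel92.1, while CX3CL1 and CXCL12 show the reverse.

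With DMSO alone, 9 members could be tested between the lines and 9 passed the threshold (edgeR's quasi-likelihood test, Benjamini-Hochberg adjusted p under 0.05 over all genes), 2 of them higher and 7 lower in Mel92.1. Over all genes the share was 69.4%, so that passing is common in this comparison. CCL5, with 4 counts in the 3 DMSO libraries of either line, fell under the filter on low counts.

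Of the CXCR1 and CXCR2 ligands, CXCL8 had 1, 1 and 0 counts in the Mel92.1 DMSO libraries and 2543, 2509 and 2555 in the MP41 ones. The groups did not overlap, and the ratio of summed CPM was 3521-fold lower in Mel92.1, with an exact 95% counting interval of 974 to 29081. CXCL2 had 0 counts in each Mel92.1 DMSO library against 414, 485 and 494, at least 430-fold lower with 3 counts over the group as the floor. CXCL3 had 2, 6 and 7 against 277, 247 and 275 counts, a log2 difference of -5.57 (SE 0.387, edgeR adjusted p = 7.71e-10). CXCL1, with 0 counts in each against 9, 5 and 5, was at least 5.86-fold lower. These 4 ligands were thus each lower in Mel92.1.

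Of the other members lower in Mel92.1, CXCL10, the interferon-induced CXCR3 ligand, had 0 counts in each DMSO library against 13, 16 and 27 in MP41, at least 17.3-fold lower. CCL2, the monocyte chemokine, had 0.246, 0.319 and 0.567 CPM against 5.06, 4.32 and 5.17 CPM, a log2 difference of -3.69 (SE 0.484, edgeR adjusted p = 2.59e-06). The groups did not overlap for either gene. For CCL15 the counts were 0, 4 and 2 against 6, 10 and 19, a log2 difference of -2.31 (SE 0.936, edgeR adjusted p = 0.0361), and this call was lost in 11 of 27 alternatives, namely without the 4 exchanged libraries, with the placement by label, with no filter on low counts, with the replicate number as a block, and without any 1 of Mel92.1 DMSO replicates 1 and 3, MP41 DMSO replicates 2 and 3, MP41 A366 replicate 1 and the exchanged MP41 A366 replicate 2, or Mel92.1 A366 replicate 1.

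The remaining 2 members went the other way. CX3CL1, the ligand of CX3CR1, had 9.86, 10.3 and 12.4 CPM in Mel92.1 and 0.67, 0.627 and 0.913 CPM in MP41, a log2 difference of 3.87 (SE 0.299, edgeR adjusted p = 3.1e-09). CXCL12, the CXCR4 ligand, had 116, 96 and 88 counts in Mel92.1 and 0 in each MP41 DMSO library, at least 108-fold higher. Its receptor CXCR4 was lower in Mel92.1, by a fitted log2 difference of -7.17 (edgeR adjusted p = 8.85e-05), a value that depends on the prior count because CXCR4 was near 0 there. Among MP41 libraries CXCL12 was at 0 in 8 of 9, the exception being UNC0642 replicate 2 with 13 counts.

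Of 30 listed NF-κB and cytokine inducers, 28 were tested between the lines, and 13 were lower and 5 higher in Mel92.1, a share no higher than the 69.4% of all genes. The 5 with the smallest p were TNFAIP2, a TNF-induced gene (log2 difference -7.82, edgeR adjusted p = 1.66e-15), the adhesion molecule ICAM1 (-2.10, adjusted p = 1.37e-14), NFKBIE, an inhibitor of NF-κB (2.66, adjusted p = 2.14e-11), NFKBIA, another such inhibitor (-1.55, adjusted p = 2.24e-11), and the feedback regulator TNFAIP3 (-2.77, adjusted p = 1.75e-09). The list's median log2 difference was -0.48, beside -0.0222 over all genes tested. Of 14 interferon inducers and sensors tested, 5 were higher and 5 lower, also near that share, with a median of -0.00953. The 5 with the smallest p were the transcription factors STAT2 (log2 difference -0.88, edgeR adjusted p = 7.39e-09), IRF3 (1.49, adjusted p = 1.64e-08) and IRF1 (1.08, adjusted p = 5.72e-05), the RNA sensor IFIH1 (-2.23, adjusted p = 6.88e-08) and its adaptor MAVS (0.42, adjusted p = 1.8e-05).

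The main question was what EHMT2 inhibition does to these transcripts. Under UNC0642, 0 of 4 tested members passed the threshold in Mel92.1 and 0 of 8 in MP41, beside 0.688% and 0.241% of all genes. Unadjusted p under 0.05 was reached by 0 members in Mel92.1 and by 2 in MP41, CXCL3 and CCL2, and both DESeq2 and limma voom also called 0 in each line. In the plot of log2 fold changes, the UNC0642 intervals cover 0 except for those 2.

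**Figure D2:**
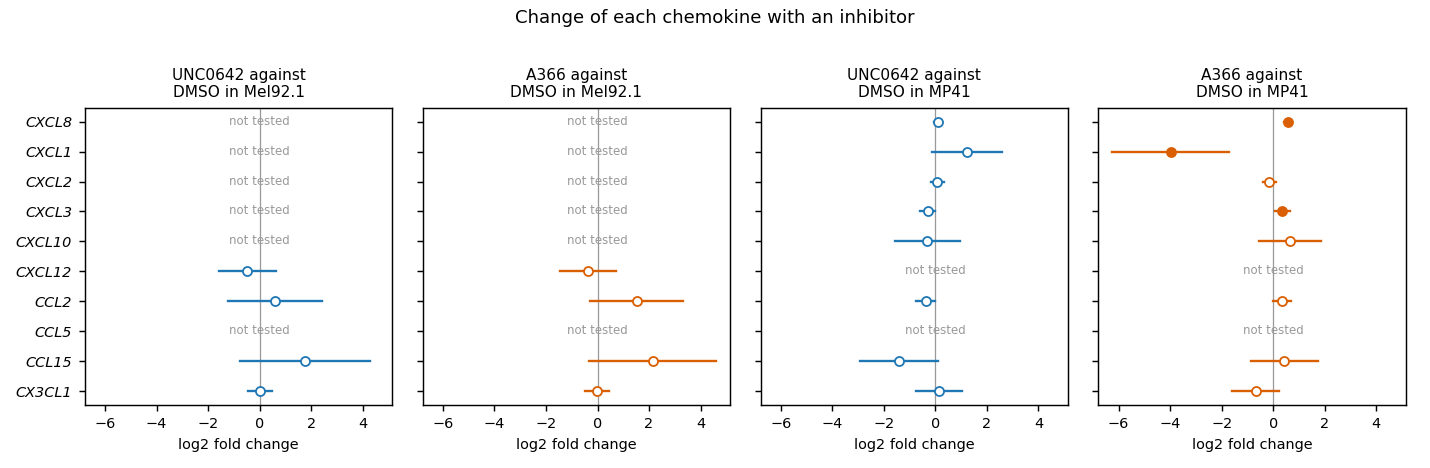
log2 fold change (x axis) of each chemokine (rows) with UNC0642 or A366 against DMSO in each line. Circles are the edgeR estimates from 3 against 3 libraries, lines their 95% intervals, and filled circles pass the threshold (CXCL8, CXCL1 and CXCL3 with A366 in MP41). Members under the filter on low counts are marked as not tested.

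In MP41, CXCL8 with UNC0642 stood at 54.7, 65.5 and 60.3 CPM against 55, 58.3 and 55.5 CPM with DMSO, a log2 fold change of 0.09 (95% interval -0.0699 to 0.255, edgeR adjusted p = 0.809). The groups overlapped. CXCL2 likewise overlapped, at 10.9, 10.1 and 11.7 against 8.95, 11.3 and 10.7 CPM (log2 fold change 0.08, interval -0.166 to 0.319). CXCL3 had 5.4, 5.01 and 3.99 CPM against 5.99, 5.74 and 5.97 CPM, each below the lowest DMSO library (log2 fold change -0.30, SE 0.135, edgeR adjusted p = 0.55).

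CXCL1 had 13, 22 and 10 counts with UNC0642 in MP41 against 9, 5 and 5 with DMSO, each above the highest DMSO library, with a log2 fold change of 1.21 (SE 0.622, edgeR adjusted p = 0.632). CXCL1 and CXCL3 were the 2 members whose replicates did not overlap, beside 18.8% of all genes. CCL2 stood at 3, 3.79 and 4.49 CPM against 5.06, 4.32 and 5.17 CPM (log2 fold change -0.37, SE 0.165, edgeR adjusted p = 0.542). CCL15 had 1, 6 and 6 counts against 6, 10 and 19 (log2 fold change -1.40, SE 0.693, adjusted p = 0.605). CXCL10, with 13, 5 and 26 against 13, 16 and 27 counts, and CX3CL1, with 24, 60 and 27 against 31, 27 and 42 counts, overlapped. CCL5 had 1, 0 and 9 against 0, 1 and 3 counts and was not tested.

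In Mel92.1, UNC0642 replicates disagreed among themselves. CXCL12 had 0.425, 2.05 and 2.57 CPM against 2.37, 2.55 and 2.27 CPM with DMSO, replicate 1, the library that stands apart, being the low one (log2 fold change -0.47, edgeR adjusted p = 0.759, and -0.05 without it). CCL2 had 0, 0.742 and 0.862 CPM against 0.246, 0.319 and 0.567 CPM, with replicate 1 again at 0 (log2 fold change 0.60, adjusted p = 0.821, and 1.10 with edgeR adjusted p = 0.267 without it). CCL15 had 0, 7 and 15 counts against 0, 4 and 2 (log2 fold change 1.75, adjusted p = 0.641, and 2.19 without replicate 1). CX3CL1 had 15.2, 10.4 and 8.06 CPM against 9.86, 10.3 and 12.4 CPM (log2 fold change 0.03, and -0.24 without replicate 1). Outside replicate 1, then, CCL2 and the few counts of CCL15 lay above each DMSO library and CXCL12 lay close to them. CX3CL1 lay among them in replicate 2 and below them in replicate 3. None of the 4 had replicates apart from those of DMSO, beside 15.5% of all genes.

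Among the members under the filter in Mel92.1, CXCL8 had 0, 4 and 32 counts with UNC0642 against 1, 1 and 0 with DMSO. The 32 counts are in replicate 3, the deepest library, where CXCL1 had 11 counts, its highest value in the line (0 in replicates 1 and 2 and with DMSO), while CXCL2 and CXCL10 had 0. CXCL3 had 0, 4 and 7 against 2, 6 and 7 counts and CCL5 0 in each against 0, 3 and 1. The response of CXCL8 to UNC0642 differed between the lines by 4.01 on the log2 scale (SE 0.988, edgeR interaction, unadjusted p = 0.000829, adjusted p = 0.0987), and without replicate 3 of Mel92.1 the difference was 1.90 (adjusted p = 0.454), while without replicate 1 it was 4.28 and passed (edgeR adjusted p = 0.0182). In this interaction 0 of 9 members passed with edgeR, 3 had an unadjusted p under 0.05 (CXCL8, CXCL12 and CCL15), limma voom called 0 and DESeq2 1, CXCL8, beside 0.601% of all genes with edgeR. The 9 include CXCL2 and CXCL10, at 0 in all Mel92.1 libraries, for which no difference could be estimated (SE 119 and 764). The CXCL12 difference rests on the 13 counts of MP41 UNC0642 replicate 2, as CXCL12 was at 0 in 8 of 9 MP41 libraries.

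Under A366 in MP41, 3 of 8 tested members passed the threshold: CXCL8 and CXCL3 rose and CXCL1 fell. The share over all genes was 46%, so a share of members of this size is near the background. CXCL8 had 87, 86.8 and 82.6 CPM with A366 against 55, 58.3 and 55.5 CPM with DMSO. All 3 A366 libraries lay above all 3 DMSO libraries, with a log2 fold change of 0.58 (SE 0.0746, edgeR adjusted p = 0.000329). Without the exchanged libraries, replicate 1 alone gave 0.59 (adjusted p = 0.000349, the lone library being assumed to vary like the other groups), whereas the placement by label gave -0.98 (adjusted p = 0.677), the 1 of 29 alternatives in which the call was lost.

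CXCL3 had 8.23, 7.14 and 7.62 CPM with A366 against 5.99, 5.74 and 5.97 CPM, a log2 fold change of 0.35 (SE 0.133, edgeR adjusted p = 0.0458). The groups did not overlap, but the call was lost in 12 of 29 alternatives (adjusted p from 0.000478 to 0.832), 6 of which left out 1 library (any of the DMSO libraries, UNC0642 replicate 2, or A366 replicate 1 or 3). The others included an offset for GC content and length, which gave 0.04 (adjusted p = 0.832), and the fit without the exchanged libraries (0.44, adjusted p = 0.105). CXCL1 had 0, 0 and 1 counts against 9, 5 and 5, which is 21.6-fold lower in summed CPM, with an exact 95% counting interval of 3.44 to 898 (edgeR adjusted p = 0.00849). As labelled the fitted log2 fold change kept its sign (edgeR adjusted p = 0.0201). In that placement A366 replicates 2 and 3 hold Mel92.1 cells, and CXCL1 was at 0 in 7 of 9 Mel92.1 libraries. It therefore cannot test a change with A366. The fit without the exchanged libraries was the 1 of 28 alternatives in which the CXCL1 call was lost. CXCL2, the remaining member that acts on these receptors, stood at 9.91, 8.79 and 9.73 against 8.95, 11.3 and 10.7 CPM (log2 fold change -0.15, 95% interval -0.389 to 0.0967), although with the GC content and length offset it fell by 0.41 on the log2 scale (edgeR adjusted p = 0.00941). The neutrophil chemokines thus did not move as one group.

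The other MP41 members did not pass with A366. CCL2 had 6.5, 5.49 and 6.61 CPM against 5.06, 4.32 and 5.17 CPM, above each DMSO library (log2 fold change 0.33, SE 0.162, edgeR adjusted p = 0.114). It was called by limma voom (0.36, adjusted p = 0.00609), which called 10248 of 14956 genes here, CX3CL1 among them. CX3CL1 had 0.363, 0.563 and 0.474 CPM against 0.67, 0.627 and 0.913 CPM, below each DMSO library (log2 fold change -0.68, SE 0.417, adjusted p = 0.201). Together with CXCL8, CXCL3 and CXCL1 that made 5 of 8 members whose replicates did not overlap, beside 58% of all genes. CXCL10 had 27, 41 and 32 counts against 13, 16 and 27, so that the lowest A366 and the highest DMSO library tied in counts (log2 fold change 0.65, SE 0.554, edgeR adjusted p = 0.365). CCL15 had 16, 16 and 22 against 6, 10 and 19 counts (log2 fold change 0.43, SE 0.597, adjusted p = 0.583). CCL5, under the filter, had 10, 8 and 9 counts against 0, 1 and 3, a 5.93-fold ratio of summed CPM with an exact 95% counting interval of 2.07 to 23.3, and CXCL12 had 0 in all 6 libraries. Without the exchanged libraries the log2 fold changes were -0.10 for CXCL2, 0.38 for CCL2, -1.06 for CX3CL1, 0.13 for CXCL10 and 0.06 for CCL15, none past the threshold. As labelled they were -1.67, -0.76, 3.30, -1.37 and -0.09, of which CX3CL1 passed (edgeR adjusted p = 0.0393), and CXCL3 was at -1.06.

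Other measures moved with A366 in MP41. The 4 ribosomal RNA genes took 5.93% to 11% of the counts with A366 and 3.31% to 5.1% with DMSO. The summed level of the 10 leukocyte markers was 1.57 to 1.95 CPM against 0.543 to 1.23 CPM, with CD3D, MS4A1, KLRD1 and FCGR3A at 0 with A366, and that of 6 endothelial markers 4.22 to 4.83 against 2.02 to 2.44 CPM, with CDH5 at 0 with DMSO. Of the leukocyte markers 2 could be tested and 0 passed (1 unadjusted, edgeR), of the endothelial ones 4 were tested and 1 rose, VWF, the von Willebrand factor gene (log2 fold change 2.73, edgeR adjusted p = 0.00107), and of 8 melanocytic markers 4 rose and 3 fell. Their part in the chemokine values was not tested.

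Under A366 in Mel92.1, 0 of 4 tested members passed the threshold (edgeR, 0 with an unadjusted p under 0.05), beside 0.213% of all genes. DESeq2 called 0 of them, beside 171 of 14528 genes, and limma voom 1, beside 3087 of 14528 genes. CCL2 had 1.09, 1.05 and 1.1 CPM against 0.246, 0.319 and 0.567 CPM, all 3 above all 3, with a log2 fold change of 1.52 (95% interval -0.295 to 3.33, edgeR adjusted p = 1). With limma voom and sample quality weights it was 1.58 (adjusted p = 0.00597), and in edgeR without UNC0642 replicate 1, which enters the estimate of spread, 1.53 (adjusted p = 0.0763). CCL15 had 10, 14 and 7 counts against 0, 4 and 2, also without overlap (log2 fold change 2.14, interval -0.33 to 4.6, edgeR adjusted p = 1). CXCL12 had 1.97, 2.03 and 1.54 CPM against 2.37, 2.55 and 2.27 CPM, below each DMSO library (log2 fold change -0.38, adjusted p = 1). These 3 of 4 members did not overlap, beside 15.8% of all genes. CX3CL1 had 11.1, 10.9 and 10.2 CPM against 9.86, 10.3 and 12.4 CPM (log2 fold change -0.02, interval -0.477 to 0.442). Without the exchanged libraries the log2 fold changes were 1.53 for CCL2, 2.18 for CCL15 and -0.29 for CXCL12, and as labelled 3.55, 2.72 and -1.87, none past the threshold.

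The remaining members fell under the filter on low counts in Mel92.1. CXCL8 had 2, 5 and 1 counts, CXCL1 0, 0 and 1, and CXCL3 5, 7 and 11 counts against 2, 6 and 7 with DMSO, while CXCL2, CXCL10 and CCL5 had 0 in each library. In the test of a line difference in the response to A366, 0 of 9 members passed with edgeR (0 unadjusted), beside 13.8% of all genes. DESeq2 called 1 (CCL2), beside 3489 of 15799 genes, and limma voom 3 (CXCL1, CCL2 and CX3CL1), beside 9276 of 15799. For 3 of the 9 no difference could be estimated. These were CXCL2 and CXCL10, at 0 in Mel92.1 (SE 180 and 1660), and CXCL12, at 0 in MP41 with DMSO and A366 (SE 1130). For CCL2 the difference, Mel92.1 less MP41, was 1.17 on the log2 scale (SE 0.629, edgeR adjusted p = 0.222).

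The inhibitors are of different chemical scaffolds, and at the same dose and time they were compared directly over 8 members in MP41 and 4 in Mel92.1, with p-values adjusted over all genes. In MP41, 5 members passed, 4 higher with A366 than with UNC0642 and 1 lower, beside 43.1% of all genes. CXCL8 was higher by 0.49 on the log2 scale (SE 0.0745, edgeR adjusted p = 0.00059), CXCL3 by 0.65 (SE 0.134, adjusted p = 0.00257), CCL2 by 0.70 (SE 0.164, adjusted p = 0.00497) and CCL15 by 1.84 (SE 0.672, adjusted p = 0.0431). CXCL1, with 1 against 45 summed counts, was 51.3-fold lower, with an exact 95% counting interval of 8.74 to 2069 (edgeR adjusted p = 0.00139). The CCL15 call was lost without any 1 of the 3 A366 libraries, the 3 UNC0642 libraries or DMSO replicate 2. Without the exchanged libraries 4 members passed, all but CCL15, and as labelled 2 did, with CXCL8, CXCL3 and CCL2 turned in direction (-1.07, -0.76 and -0.39). The other 3 did not pass, CXCL2 at -0.22 (interval -0.465 to 0.0198), with each A366 library below each UNC0642 library, CX3CL1 at -0.81 (interval -1.72 to 0.0891) and CXCL10 at 0.96 (interval -0.269 to 2.19). In alternatives, CXCL2 passed with the GC content and length offset (edgeR adjusted p = 0.00437) and CXCL10 without UNC0642 replicate 3 (edgeR adjusted p = 0.0462). CX3CL1 passed as labelled, where it turned in direction to 3.17, and with limma voom, which called 9159 of 14956 genes. In Mel92.1, 0 of 4 passed (0 unadjusted, and 0 with DESeq2 and limma voom), beside 0.165% of all genes, with intervals of -0.849 to 2.69 for CCL2, -1.78 to 2.57 for CCL15, -1 to 1.19 for CXCL12 and -0.509 to 0.418 for CX3CL1.

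Of 38 other chemokine ligands, 15 had 0 counts in all libraries, 26 had 10 or fewer counts in every library and 4 reached 1 CPM in a group: CCL28, CXCL16, CCL18 and CXCL9. In MP41 with A366, 3 of 7 tested rose and 1 fell, beside 46% of all genes, and with UNC0642 0 passed (edgeR, 2 unadjusted). CCL18, a chemokine best known from alternatively activated macrophages, had 122, 92 and 141 counts with A366 against 11, 3 and 3 with DMSO and 24, 20 and 11 with UNC0642, a log2 fold change of 4.17 for A366 against DMSO (SE 0.484, edgeR adjusted p = 0.000229). CXCL9, which shares the receptor CXCR3 with CXCL10, had 78, 54 and 32 against 8, 8 and 14 counts (log2 fold change 2.20, SE 0.423, adjusted p = 0.00174), with 16, 21 and 19 under UNC0642. CXCL11, the third CXCR3 ligand, had 14, 19 and 8 against 5, 0 and 0 counts (log2 fold change 2.75, SE 0.986, adjusted p = 0.0381), a call lost in 10 of 27 alternatives, among them without the exchanged libraries, without any 1 A366 library, and without DMSO replicate 2 or 3 or UNC0642 replicate 3. The groups did not overlap for any of the 3, and all 3 rose from few counts. CCL18 and CXCL9 also passed without the exchanged libraries (4.01 and 2.55), while as labelled they stood at 2.78 (edgeR adjusted p = 0.0587) and 1.01 (adjusted p = 0.618).

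**Figure D3:**
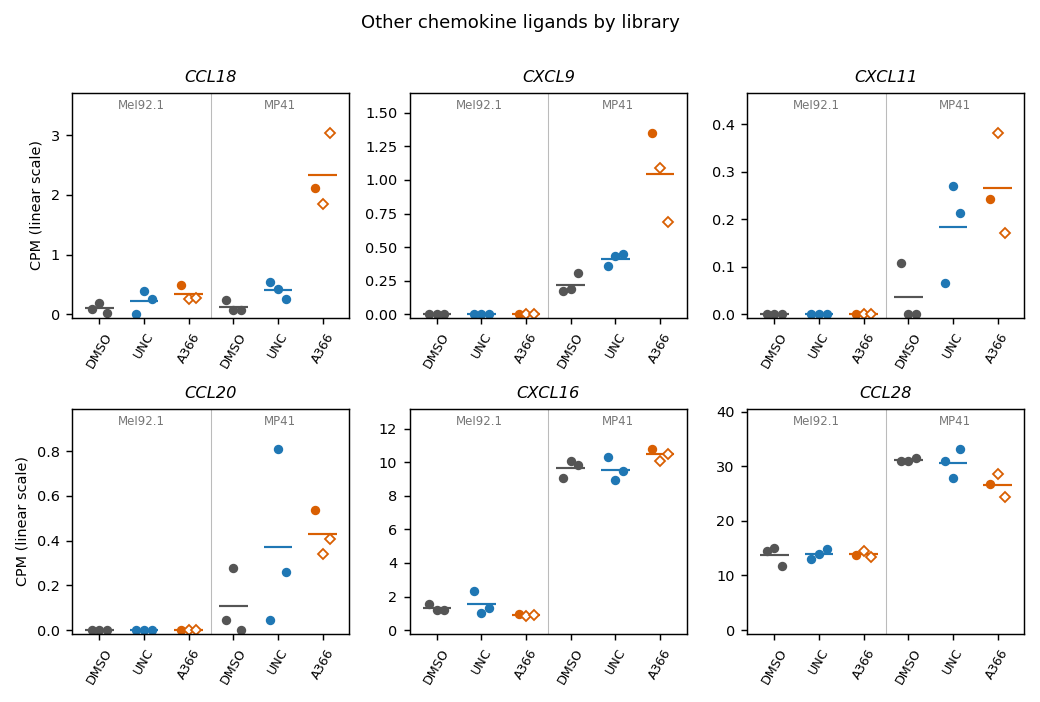
CPM (counts scaled by library size and TMM factor, linear axis from 0) of 6 other chemokine ligands in each library, by line and treatment. Points are libraries, lines group means, and open diamonds the 4 libraries placed in the other line than their label. CCL18, CXCL9 and CXCL11 have their highest group mean with A366 in MP41, and CXCL9, CXCL11 and CCL20 are at 0 in Mel92.1.

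CCL28, a mucosal chemokine, was the most abundant other ligand, at 26.8, 28.6 and 24.3 CPM with A366 against 30.9, 31 and 31.5 CPM with DMSO in MP41, a log2 fold change of -0.25 (SE 0.085, edgeR adjusted p = 0.0284) that was lost in 9 of 29 alternatives, among them without the exchanged libraries, any 1 DMSO library, or A366 replicate 1 or 3. In Mel92.1 it stood at 11.8 to 15.1 CPM over the 9 libraries, lower than in MP41 with DMSO (log2 difference -1.18, edgeR adjusted p = 1.1e-08). CXCL16, the transmembrane ligand of CXCR6, was also lower in Mel92.1 (log2 difference -2.88, adjusted p = 2.22e-09), as was CXCL9, at 0 counts in all Mel92.1 libraries and at least 9.26-fold lower with DMSO. In Mel92.1, 3 other ligands were tested with each inhibitor and 0 passed (edgeR, 0 unadjusted). CCL18 had 4, 7 and 1 counts in the DMSO libraries of this line, 0, 15 and 14 in the UNC0642 libraries and 20, 12 and 13 in the A366 libraries.

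In MP41 with A366, 27 NF-κB and cytokine inducers were tested, and 9 rose and 5 fell, near the 46% of all genes that passed, with a median log2 fold change of 0.235 beside 0.0196 over all genes. The 5 with the smallest p were ATF3, a stress-induced transcription factor (1.80, SE 0.0957, edgeR adjusted p = 8.24e-07), the AP-1 subunit JUN (1.48, SE 0.118, adjusted p = 1.67e-05), CEBPB (0.95, SE 0.136, adjusted p = 5e-04) and CEBPD (0.95, SE 0.152, adjusted p = 0.000753), a pair of C/EBP factors, and CHUK, a kinase of the NF-κB pathway (-0.59, SE 0.099, adjusted p = 0.000922). Of 14 interferon inducers and sensors, 4 rose and 2 fell, also near that share, with a median of -0.0127. They included the RNA sensor TLR3 (-0.80, edgeR adjusted p = 0.00136), IRF7 (0.70, adjusted p = 0.00142), the receptor subunit IFNAR1 (-0.34, adjusted p = 0.00285), IRF3 (0.59, adjusted p = 0.00307) and IRF9 (0.48, adjusted p = 0.0276). IRF7 and IFNAR1 lost the call with the GC content and length offset (0.22 and -0.03), as did IRF9 (0.12), whose call was lost in 8 of 29 alternatives, among them without the exchanged libraries, DMSO replicate 1 or 2, or A366 replicate 1 or 3. Without the exchanged libraries ATF3, JUN, CEBPB, CEBPD, CHUK, TLR3, IRF7, IFNAR1 and IRF3 also passed, whereas as labelled JUN, TLR3 and IRF3 did and ATF3 (0.82), CEBPB (0.19), CEBPD (-0.19), CHUK (-0.15), IRF7 (0.48) and IFNAR1 (-0.048) did not. With UNC0642 in MP41, FOS alone of the 27 inducers passed (-0.41, SE 0.0713, edgeR adjusted p = 0.0385), a call lost in 10 of 29 alternatives, among them without any 1 DMSO or UNC0642 library or A366 replicate 1, and 0 of the 14 interferon genes did (2 unadjusted). In Mel92.1, 0 of 24 inducers and 0 of 14 interferon genes passed with either inhibitor (edgeR, 3 and 0 unadjusted with UNC0642, 2 and 0 with A366).

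**Figure D4:**
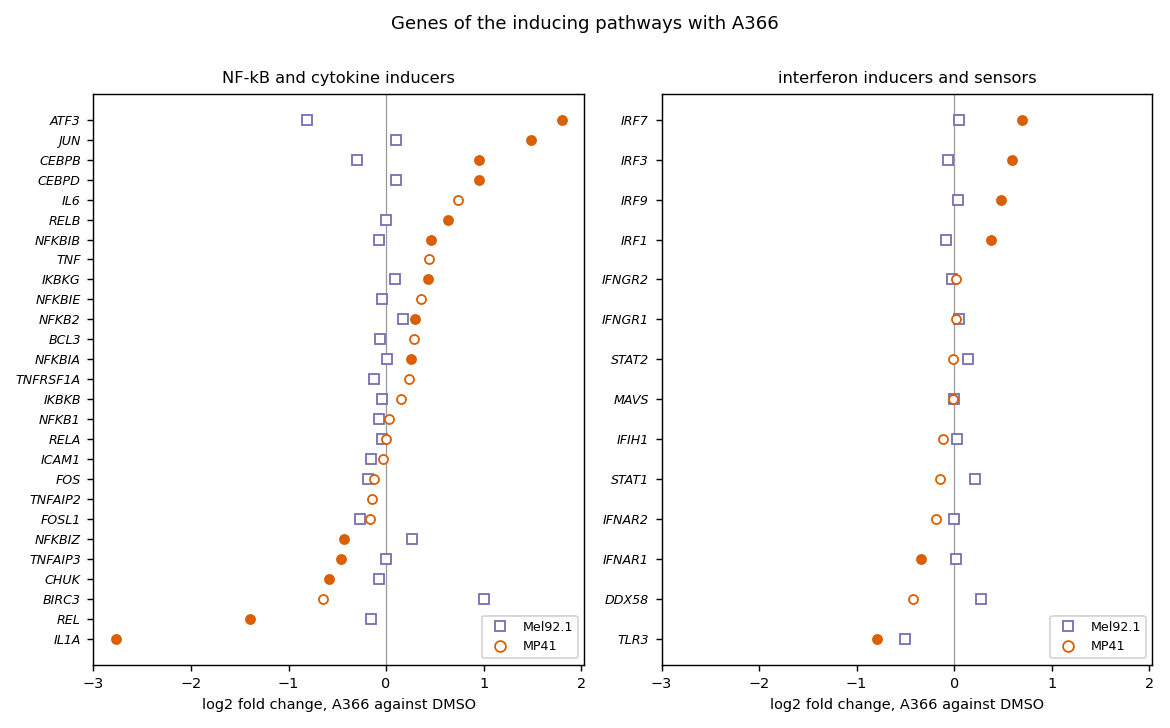
log2 fold change (x axis) with A366 against DMSO of the listed NF-κB and cytokine inducers and interferon genes (rows, ordered by the MP41 value). Circles are MP41, squares Mel92.1, and filled symbols pass the threshold. The MP41 values run from IL1A at -2.77 to ATF3 at 1.80, and no Mel92.1 square is filled.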

How the data were processed

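The deposited table holds expected counts per gene, not normalized, which the authors made with RSEM 1.2.15 and Bowtie2 2.1.0 on hg38 (human), per the labels' processing notes. The study's methods describe another pipeline (mouse mm10, FPKM), and its notes differ on oligo-dT selection or ribosomal depletion. All library columns were used. Expected counts were rounded, and a joint fit of the 9 libraries of each line was made in R 4.3.3 using edgeR 4.0.16 (filterByExpr, TMM, glmQLFit, glmQLFTest, Benjamini-Hochberg over all genes, threshold 0.05). The difference between lines and interactions came from 1 fit of 18 libraries, and CPM used its TMM factors. The study's test on FPKM was not repeated.

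The chemokines and gene lists were chosen with earlier results of these data known. All members are named, and of each other list the called genes, up to 5 per comparison, smallest p first, and other ligands at 1 CPM or more. Alternatives were label placement, omission of the 4 exchanged libraries, DESeq2 1.42.0, limma 3.58.1 voom with quality weights, RLE factors, other filters, a replicate block, all 18 libraries, ribosomal RNA genes left out, each library left out and, chosen after seeing the data, a GC content and length offset (GENCODE release 29, 93.2% of symbols matched). For a comparison within a line, leaving out a library of the other line could not change the result, yet it counts among the alternatives given. A fold against a group at 0 used 3 counts over the group. Intervals of ratios are exact and cover counting error only. The fits were tested on simulated data. Python 3.11.15 with scipy 1.17.1 and matplotlib 3.10.9 made tables and plots.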

Additional observations from a re-analysis of the deposited data

Results flagged for a closer look

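In the response to A366, 7 inducer and receptor genes differed between the lines (Mel92.1 value less MP41 value on the log2 scale, edgeR interaction over 18 libraries). They were 4 of 28 NF-κB and cytokine inducers, 1 lower and 1 higher of 14 interferon genes, and 1 of 4 receptors tested. Over all genes 13.8% passed, so this count is near the background, and the genes are named because they passed. The difference was -2.64 for ATF3, -1.41 for JUN, -1.28 for CEBPB, -1.13 for the receptor CCR10, -0.66 for RELB, -0.68 for IRF3 and 0.33 for IFNAR1, with adjusted p from 6.97e-05 (JUN) to 0.0454 (IFNAR1). ATF3 stood at 1.80 in MP41 and -0.81 in Mel92.1, JUN at 1.48 and 0.10, and CEBPB at 0.95 and -0.30. The call held in 28 of 28 alternatives for JUN and was lost in 1 for CEBPB, 2 for ATF3, 3 for CCR10, 11 for RELB, 11 for IRF3 and 15 for IFNAR1. As labelled it was lost for CEBPB, ATF3, CCR10 and IFNAR1, and without the exchanged libraries for ATF3, CCR10, RELB, IRF3 and IFNAR1. With the GC content and length offset it was lost for CCR10, RELB, IRF3 and IFNAR1. For RELB, IRF3 and IFNAR1 it was also lost without any 1 of MP41 DMSO replicates 1 and 3, Mel92.1 DMSO replicates 2 and 3, A366 replicates 1 and 3 of MP41 or A366 replicates 1 and 2 of Mel92.1. RELB and IFNAR1 also lost it without MP41 DMSO replicate 2, and IFNAR1 without MP41 UNC0642 replicate 1.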

How the results depend on the processing

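Most fold changes of the members and of the listed genes named were kept (2995 of 3219 values under 29 alternatives), while 159 lost the call, 20 gained it, 17 moved and 28 turned. Some of the kept values were fixed in advance. Each line was fitted alone, so leaving out a library of the other line could not change a comparison within a line. Kept means called both times in the same direction, or uncalled both times and within the SE of the main estimate, whatever the sign. CCL15 with A366 in MP41, at 0.43 and as labelled at -0.09, thus counts as kept. The number of members called stayed within 1.5 times in 243 of 258 cases, which include such fixed ones. As labelled, 2 members passed for A366 against UNC0642 in MP41, beside 4670 of 15088 genes, and 7 in the line difference in the response to A366, beside 7801 of 15799. Values that turned by this rule as labelled were, for A366 against DMSO in MP41, CXCL8 -0.98, CXCL3 -1.06, CXCL10 -1.37, CCL2 -0.76, CX3CL1 3.30, CEBPD -0.19 and IRF9 -0.21. For A366 against UNC0642 they were CXCL8 -1.07, CXCL3 -0.76, CXCL10 -1.07, CCL2 -0.39, CX3CL1 3.17, CCR10 -0.050 and CEBPD -0.14 in MP41 and CXCL12 -1.37 in Mel92.1. For the line difference in the response to A366 they were CX3CL1 -4.70, CCR10 0.52, CEBPB 0.58, IFNAR1 -0.15 and CXCL10 8.85, the last without a usable estimate in the main fit. Without the exchanged libraries 1 member passed for A366 in MP41, and the line difference of CXCL3 turned to -0.48. DESeq2 called 1 member in each line difference. A filter at 1 CPM left 3 called for A366 against UNC0642 in MP41 and 5 between the lines, fewer members being tested. With limma voom 1 passed for A366 in Mel92.1, 5 in MP41 and 3 in the line difference for A366. Beside these, limma voom called 3087 of 14528, 10248 of 14956 and 9276 of 15799 genes, respectively. With it CX3CL1 for A366 against UNC0642 in Mel92.1 (0.19) and the line difference of CXCL3 for A366 (-0.66) turned. In 1 fit of 18 libraries 1 member passed for UNC0642 in Mel92.1 (CXCL8) and 2 for A366 against UNC0642 in MP41. The cause was not tested, other than where samples or genes were left out.

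Leaving out 1 library at a time, 0 to 1 members passed in each line difference, the 1 arising without Mel92.1 UNC0642 replicate 1, or for UNC0642 also without replicate 2. CX3CL1 then ranged from -0.24 to 0.22 for UNC0642 in Mel92.1, from -0.24 to 0.22 for A366 against UNC0642 in Mel92.1, from -0.33 to 0.36 for UNC0642 in MP41 and from -0.37 to 0.36 in the line difference for UNC0642, where CXCL1 ranged from -1.21 to 4.36. Deviations of same-numbered libraries correlated between -0.209 and 0.239, so the numbers were not taken as pairs. With the replicate block 2 members passed for A366 in MP41 (CXCL3 lost, adjusted p = 0.0572), 5 for A366 against UNC0642 in MP41 and 8 between the lines. Depth limits the members near 0, which were not tested within their line.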

Other observations

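Of 23 chemokine receptors, 3 had 0 counts in all libraries and CCR10, the receptor of CCL28, alone reached a group mean of 1 CPM. CCR10 was higher with A366 in MP41 by 0.89 on the log2 scale (SE 0.145, edgeR adjusted p = 0.000786) and stood at -0.21 in Mel92.1 (adjusted p = 1). CXCL5, a further CXCR2 ligand, had 5, 5 and 2 counts in the MP41 DMSO libraries, 6, 8 and 12 in those given UNC0642 and 3, 7 and 2 in those given A366, and at most 4 counts in a Mel92.1 library. CCL27, a CCR10 ligand, had at most 7 counts in any library. CCL20, the CCR6 ligand, had 0 counts in all Mel92.1 libraries, and in MP41 2, 12 and 0 counts in DMSO libraries, 2, 39 and 11 in UNC0642 libraries, and 31, 17 and 19 in A366 libraries (log2 fold change 1.98 for A366 against DMSO, edgeR adjusted p = 0.124).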
